A study of Homo sapiens with 9 samples.

Results

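Most of the 48 genes described here encode mitochondrial machinery that burns fatty acids and pyruvate. Exceptions include MDH1 (cytosol) and ACSL3 (endoplasmic reticulum and lipid droplets). The 48 genes cover fatty acid oxidation, the pyruvate dehydrogenase (PDH) complex with its kinases and phosphatases, and the tricarboxylic acid (TCA) cycle. They were chosen by gene symbol as fields of known ERRα control, from 61209 symbols in the count table. No threshold on their values was used, but earlier results of these data were known when they were chosen. Of these symbols, 16976 passed the filter on low counts and were tested, among them all 48 members. Bulk polyA RNA-seq had been performed in GIST-T1 (T1) cells, an imatinib-sensitive line of human gastrointestinal stromal tumor (GIST) with the KIT exon 11 deletion del560-79, in 9 libraries. The first group of 3 libraries was transfected with an siRNA against ESRRA, the gene of ERRα (siERRα), the second group of 3 with non-target siRNA plus 50 nM imatinib, an inhibitor of the KIT kinase (imatinib), and the third group of 3 with non-target siRNA alone (siNC). All cells carried the KIT deletion, all received an siRNA with a lipid reagent in antibiotic-free medium with serum, and all were harvested at 48 h. T1 is 1 cell line, siERRα was not combined with imatinib, and untransfected cells were not analysed here. No source says whether libraries within a group were grown as separate cultures, so p-values measure the spread between these libraries, which may be technical.

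Fatty acids enter mitochondria after activation to acyl-CoA and transfer onto carnitine, and are then shortened in repeated rounds of dehydrogenation, hydration, dehydrogenation and thiolysis to acetyl-CoA. Pyruvate reaches the same acetyl-CoA through the PDH complex, which PDH kinases switch off by phosphorylation and PDH phosphatases switch on again. The TCA cycle oxidizes acetyl-CoA, and ERRα, an orphan nuclear receptor that works with PGC-1 coactivators, is known in muscle and heart as an activator of genes in all of these pathways.

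Library totals were between 37527236 and 49363002 counts, and values below are CPM (counts scaled to library size with TMM normalization), listed in the order of libraries 1, 2 and 3 of each group. The median member averaged 58.9 CPM over the 9 libraries, against 13.4 CPM for the median gene tested, and 1 member (PDK4) averaged under 5 CPM. Markers of the tumor type were present throughout (KIT 1270 to 1630 CPM, ANO1 375 to 626 CPM). The leukocyte, adipocyte and hepatocyte, and striated muscle marker lists summed to at most 1.02 CPM in any library, and endothelial markers to at most 3.36 CPM. Of 6 epithelial markers, KRT18 stood at 185 to 303 CPM, while EPCAM stayed at or under 0.229 CPM. The list summed to 280 to 303 CPM in siERRα, 193 to 223 CPM in imatinib and 302 to 315 CPM in siNC, and its part in the results was not tested. Counts from the mitochondrial genome itself took 0.943 to 1.03% of the library in siERRα, 1.48 to 1.54% in imatinib and 0.846 to 0.989% in siNC.

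The targeted gene was measured first. ESRRA had 1.4, 0.757 and 1.34 CPM in siERRα and 30.4, 32 and 35.6 CPM in imatinib, against 40.7, 44.7 and 40.9 CPM in siNC. The knockdown libraries matched their labels (log2 fold change −5.18, SE 0.134, adjusted p = 6.28e-15 by edgeR's quasi-likelihood test with Benjamini-Hochberg adjustment over all genes tested, which is the test meant by every adjusted p below). Imatinib also lowered ESRRA, by far less (−0.37, adjusted p = 0.00383). The paralogs ESRRB and ESRRG were at or near 0, averaging at most 0.0236 CPM in any group, and the coactivator gene PPARGC1A (PGC-1α) averaged 0.701, 0.369 and 0.524 CPM in siERRα, imatinib and siNC. PPARGC1B (PGC-1β) averaged 9.03 CPM in siERRα and 9.09 CPM in siNC, and fell to 5.31 CPM in imatinib (log2 fold change against siNC −0.78, adjusted p = 2.21e-05).

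With siERRα, 23 of 48 members (47.9%) were called at adjusted p under 0.05 relative to siNC, beside 23.9% of all genes tested. Backgrounds here and below were not matched for abundance. The median member stood at 58.9 CPM and the median gene tested at 13.4 CPM, and small changes pass the test more readily at higher counts. Lower calls were 16 of 48 (33.3%) beside a background of 12.6%, and higher calls were 7 of 48 (14.6%) beside a background of 11.4%. The changes were small: the members' median log2 fold change was −0.08, beside 0.01 for all genes tested, and only 5 members (10.4%, background 7.26%) were both called and changed by 0.5 or more on the log2 scale. These were ACSL3, ACSL1 and SUCLA2, which fell, and PDK4 and PDHX, which rose. The summed level of the 48 members averaged 4455 ± 85.0 CPM in siERRα, against 4851 CPM in siNC (SD, n = 3). Every enzyme of the TCA cycle that was called was lower. The 25 members not called had log2 fold changes between −0.19 (ACSL4) and 0.20 (ACADSB).

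With imatinib, 24 of 48 members (50.0%) were called relative to siNC, beside 41.7% of all genes tested. Calls were divided evenly, with 12 lower (25.0%, background 20.3%) and 12 higher (25.0%, background 21.4%), and the median was 0.02, beside 0.00 for all genes. Among changes of 0.5 or more on the log2 scale, 6 members (12.5%) were called beside 17.6% of all genes: PDK4, ACADS, PDK2 and IDH2 rose, while ACSL4 and IDH3A fell. The 24 members not called had log2 fold changes between −0.25 (PDP2) and 0.11 (SLC25A20). The members' summed level averaged 4841 ± 122 CPM in imatinib, against 4851 CPM in siNC. Both treatments are set against the same 3 siNC libraries, so values of the 2 comparisons are given side by side and the difference between treatments is taken only from their own contrast. In bulk RNA, fewer cells of a kind and less RNA per cell cannot be told apart.

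**Figure D1:**
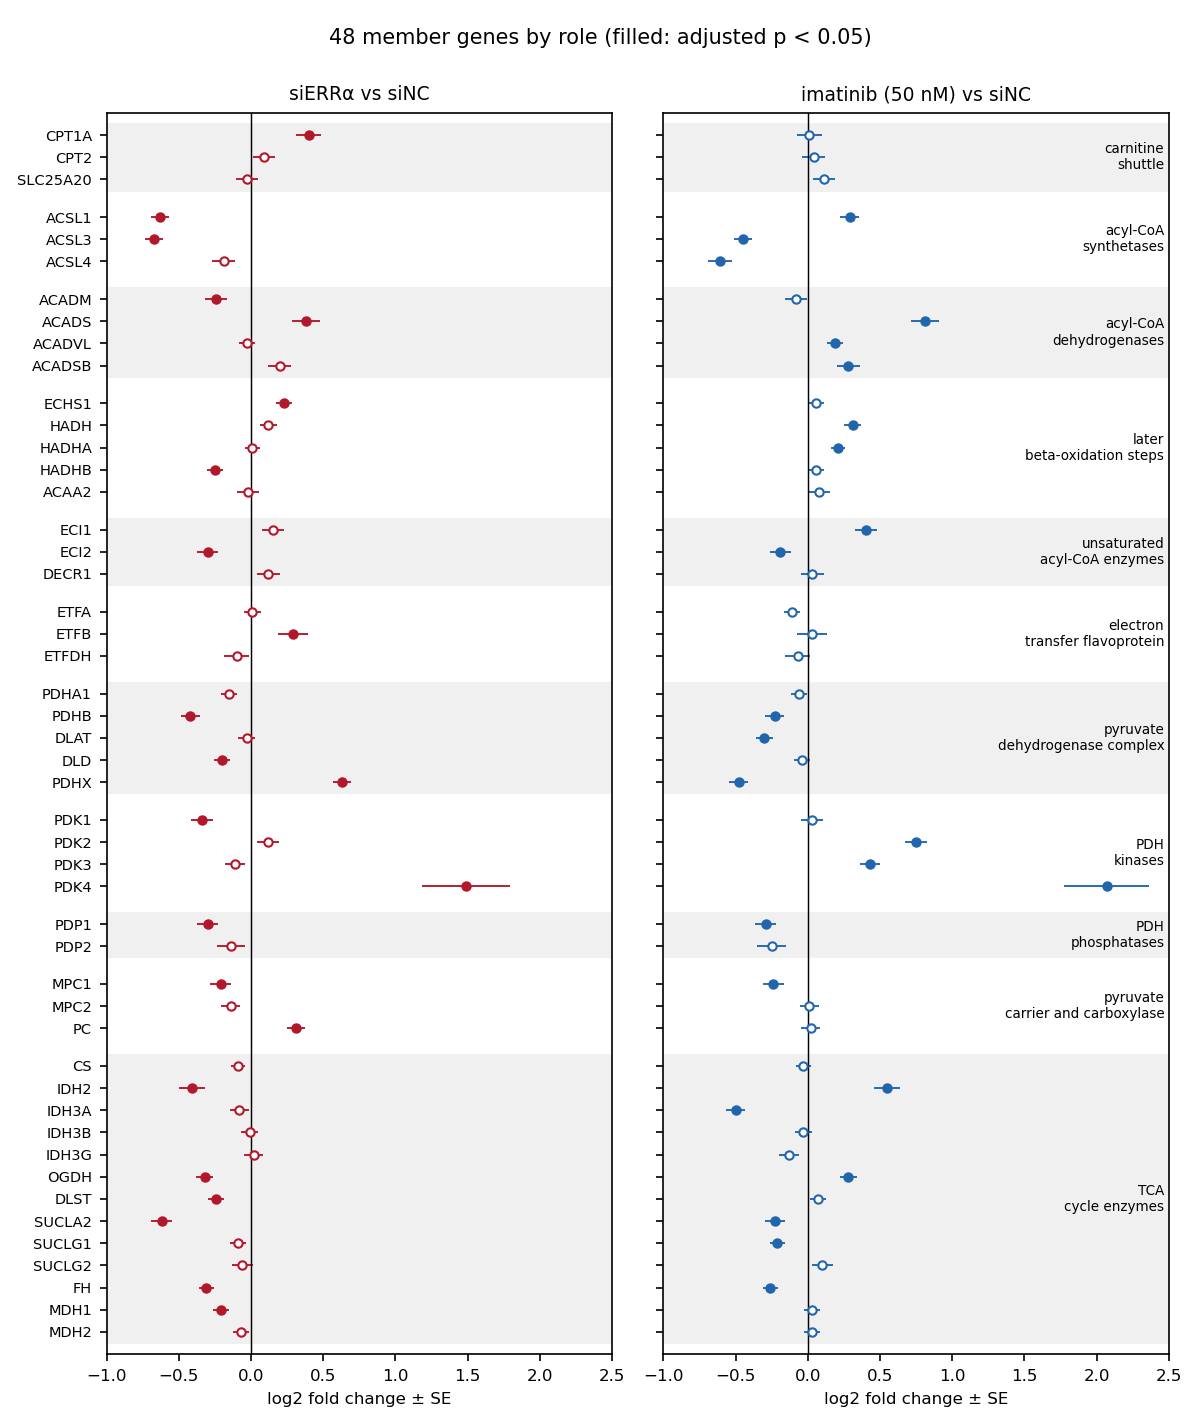
Log2 fold change with its SE (x axis) for each of the 48 members (y axis, grouped by role), siERRα against siNC on the left and imatinib against siNC on the right, with filled points for adjusted p under 0.05. Of the 13 TCA cycle enzymes, 6 were called lower and 0 higher with siERRα (12.6% and 11.4% of all genes tested). With imatinib, 3 of the 4 PDH kinases were called higher (21.4% of all genes tested).

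Because an siRNA can also act on transcripts that match its seed, the 3′ UTRs of the members were read for the heptamer ATGTTCT, a sequence noted in earlier work on these same libraries among genes lower in siERRα. Its presence is therefore not independent evidence, and no source used here gives the siRNA sequence. The heptamer was in the canonical 3′ UTR (GENCODE 44, GRCh38) of 8 of 48 members (16.7%), beside 18.8% of 12885 tested genes with a 3′ UTR. Of these 8, 4 were called lower (50.0%) and 0 higher with siERRα (ACSL1, ACSL3, PDHB and PDK1, median of the 8 −0.24). Of the 40 members without it in the 3′ UTR, 12 were lower (30.0%) and 7 higher (17.5%, median −0.07). Of all genes tested, 12.6% were lower and 11.4% higher. SUCLA2 and IDH2 were among the lower members. Only 3′ UTRs were searched for the heptamer, so members counted as without it may hold it elsewhere in the transcript. The SUCLA2 promoter window printed below holds the same letters, in lower case. They lie in its last 50 bases, which come after the start. PDP2 (2 copies, −0.14, adjusted p = 0.343) and ACAA2 (1 copy, −0.02, adjusted p = 0.872) also hold it and were not called with siERRα. The sites of the 4 lower members are shown with the heptamer in capitals, each read on the strand of its gene. Those of DLAT and CS, which were not called with siERRα either, are shown for contrast. The part of the heptamer in these changes was not tested.
ACSL1 site 1, chr4:184756539-184756565, minus strand: tacgaaactcATGTTCTtctccagtcc
ACSL1 site 2, chr4:184756044-184756070, minus strand: taataagcaaATGTTCTtataatgcta
ACSL3 site 1, chr2:222941956-222941982, plus strand: catgatttatATGTTCTgtataatgtt
ACSL3 site 2, chr2:222944185-222944211, plus strand: gatatttataATGTTCTctaaagcttg
PDHB, chr3:58427800-58427826, minus strand: tacggttgccATGTTCTttgaataaca
PDK1 site 1, chr2:172603799-172603825, plus strand: ttcattattaATGTTCTgcattaattt
PDK1 site 2, chr2:172604857-172604883, plus strand: tatattgggtATGTTCTtatccaacta
PDK1 site 3, chr2:172608647-172608669, plus strand: aaaatcctgcATGTTCTcctgca
DLAT, chr11:112062909-112062935, plus strand: actgcctaaaATGTTCTccttagatgt
CS, chr12:56272357-56272383, minus strand: caggcagaggATGTTCTggacctcccc

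Activation of long-chain fatty acids was the step with the largest falls. ACSL3, an acyl-CoA synthetase of the endoplasmic reticulum and lipid droplets (chr2:222860942-222944639), had 204, 234 and 201 CPM in siERRα and 241, 258 and 246 CPM in imatinib, against 357, 323 and 339 CPM in siNC. Neither treated group overlapped with siNC. The gene fell with siERRα (−0.67, SE 0.0633, adjusted p = 2.89e-07) and with imatinib (−0.45, SE 0.0631, adjusted p = 1.21e-05), and was lower with siERRα than with imatinib (−0.22, adjusted p = 0.00593). ACSL1, which channels fatty acids toward mitochondria in muscle and fat (chr4:184755595-184826818), moved in opposite directions. It had 45.8, 51.5 and 45.5 CPM in siERRα and 88.0, 94.7 and 86.0 CPM in imatinib, against 75.3, 71.4 and 73.7 CPM in siNC. It fell with siERRα (−0.63, SE 0.0647, adjusted p = 9.32e-07) and rose with imatinib (0.29, SE 0.0639, adjusted p = 0.00134), a difference of −0.91 between siERRα and imatinib (adjusted p = 1.01e-09). ACSL4, which prefers arachidonic acid (chrX:109624244-109733403), had 31.2, 35.3 and 30.9 CPM in siERRα and 22.1, 26.0 and 24.8 CPM in imatinib, against 40.4, 33.8 and 37.1 CPM in siNC. It fell with imatinib (−0.61, adjusted p = 9.18e-06), while siERRα overlapped with siNC (−0.19, adjusted p = 0.097, or 0.0203 without siERRα 2 and 0.0308 without siNC 2). Summed over the 3 synthetases, the level averaged 293 ± 24.5 CPM in siERRα and 362 ± 14.7 CPM in imatinib, against 450.2 CPM in siNC.

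In the carnitine shuttle 1 of 3 genes rose with siERRα, beside 11.4% of all genes tested. Lower calls were 0 in both comparisons with siNC, beside 12.6% of all genes with siERRα and 20.3% with imatinib. CPT1A, the rate-limiting carnitine palmitoyltransferase of the outer membrane, had 63.0, 70.1 and 61.6 CPM in siERRα and 56.9, 41.9 and 49.9 CPM in imatinib, against 50.2, 47.0 and 50.6 CPM in siNC. All siERRα libraries exceeded all others, and CPT1A rose relative to siNC (0.40, SE 0.0865, adjusted p = 0.00222) and was higher than with imatinib (0.39, adjusted p = 0.000915). CPT2, which returns the acyl group to CoA inside the mitochondrion, had 21.4, 19.7 and 22.2 CPM in siERRα and 20.8, 18.9 and 21.0 CPM in imatinib, against 18.8, 21.4 and 19.1 CPM in siNC. SLC25A20, the carrier that exchanges acylcarnitine for carnitine, had 16.5, 16.2 and 15.8 CPM in siERRα and 16.9, 18.8 and 18.1 CPM in imatinib, against 16.2, 17.5 and 16.1 CPM in siNC. Neither passed the test, with 95% intervals of the log2 fold change for siERRα of −0.06 to 0.25 (CPT2) and −0.18 to 0.11 (SLC25A20).

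Among the acyl-CoA dehydrogenases, which open each round of oxidation, the short-chain enzyme changed most. ACADS (chr12:120725774-120740008) had 14.5, 14.4 and 17 CPM in siERRα and 19.2, 19.9 and 22.4 CPM in imatinib, against 10.6, 13.3 and 11.3 CPM in siNC. The 3 groups did not overlap, and ACADS rose with imatinib (0.81, SE 0.0978, adjusted p = 2.14e-06) and with siERRα (0.38, SE 0.0982, adjusted p = 0.00732). Without the third siERRα library the siERRα value missed the threshold (adjusted p = 0.0631). The very-long-chain enzyme ACADVL (0.19, adjusted p = 0.00764) and the branched-chain enzyme ACADSB (0.28, adjusted p = 0.00839) also rose with imatinib. With siERRα, ACADSB was called only without siERRα 1 (adjusted p = 0.0448). The ACADVL call was lost without imatinib 3 or siNC 3 (adjusted p between 0.0571 and 0.0586). The medium-chain enzyme ACADM, a classical ERRα target, averaged 25.0 ± 1.65 CPM in siERRα and 27.8 ± 1.57 CPM in imatinib, against 29.4 ± 2.13 CPM in siNC (SD, n = 3 each). It fell with siERRα (−0.24, adjusted p = 0.0296), but leaving out any 1 of 4 libraries (siERRα 1 or 3, siNC 1 or 3) raised the adjusted p to between 0.0797 and 0.149.

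The later steps were mixed. Of 5 genes, ECHS1, the short-chain enoyl-CoA hydratase, rose with siERRα (0.23, adjusted p = 0.00422) and HADHB, the β-subunit of the mitochondrial trifunctional protein, fell (−0.25, adjusted p = 0.00191). HADHA, the α-subunit encoded next to HADHB, was at 245, 263 and 256 CPM in siERRα and 290, 298 and 291 CPM in imatinib, against 257, 251 and 253 CPM in siNC. It rose with imatinib (0.21, adjusted p = 0.0025), and its siERRα value was 0.01 (adjusted p = 0.947). HADHB had 164, 174 and 167 CPM in siERRα and 203, 218 and 205 CPM in imatinib, against 202, 197 and 200 CPM in siNC, so that the siERRα libraries lay below all others. HADH, the short-chain hydroxyacyl-CoA dehydrogenase, rose with imatinib (0.31, adjusted p = 0.000225), and the thiolase ACAA2 was called in neither comparison. Of the 3 enzymes for unsaturated acyl-CoA, the isomerase ECI2 fell with siERRα (−0.30, adjusted p = 0.00448) and with imatinib (−0.19, adjusted p = 0.0397). The imatinib call of ECI2 was lost without 1 of 4 libraries (imatinib 1 or 3, siNC 1 or 3; adjusted p between 0.0875 and 0.141). Its sister enzyme ECI1 rose with imatinib (0.40, adjusted p = 0.000335), and the reductase DECR1 was not called. ETFB, a subunit of the electron transfer flavoprotein that takes electrons from the dehydrogenases, rose with siERRα (0.29, adjusted p = 0.0422), a call lost without any 1 of 6 libraries (adjusted p between 0.0615 and 0.173) and with either other filter on low counts (0.0509 and 0.0638). ETFA and ETFDH were not called in either comparison with siNC.

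The PDH complex held the gene with the clearest opposite movement. PDHX, the binding protein that anchors the E3 subunit in the complex (chr11:34915829-35020591), had 78.3, 87.5 and 77.2 CPM in siERRα and 37.2, 37.6 and 37.8 CPM in imatinib, against 54.2, 50.8 and 51.7 CPM in siNC. It rose 1.55-fold with siERRα (log2 fold change 0.63, SE 0.0631, adjusted p = 6.05e-07) and fell to 0.719 of siNC with imatinib (−0.48, SE 0.0647, adjusted p = 8.41e-06). The contrast between siERRα and imatinib was 1.11 (SE 0.0645, adjusted p = 6.86e-11). APIP, on the opposite strand and overlapping PDHX exons in the annotation, averaged 31.0 CPM in siERRα and 30.8 CPM in imatinib, against 37.9 CPM in siNC, and fell in both (−0.29 and −0.30, adjusted p = 0.00894 and 0.004). PDHB, the β-subunit of the E1 enzyme, had 34.4, 36.5 and 34.2 CPM in siERRα and 38.3, 41.7 and 40.3 CPM in imatinib, against 48.1, 45.0 and 47.5 CPM in siNC. It fell with siERRα (−0.42, adjusted p = 7.81e-05) and with imatinib (−0.23, adjusted p = 0.0081), while its partner PDHA1 missed the threshold with siERRα (−0.15, adjusted p = 0.0555). PDHA1 passed it with the DESeq2 Wald test (0.0406), with at least 10 counts in every library (0.0284), with only the 6 libraries compared (0.0271) and without siERRα 2 or any 1 imatinib library (adjusted p between 0.0296 and 0.0428). DLAT, the E2 acetyltransferase, fell with imatinib (−0.30, adjusted p = 0.000342). DLD, the E3 subunit that the branched-chain and 2-oxoglutarate complexes also use, fell with siERRα (−0.20, adjusted p = 0.0161). The call was lost without 1 of 3 libraries (siERRα 1 or 3, or siNC 1, with adjusted p between 0.0514 and 0.0865). Antisense exons of LAMB1 overlap 5.9% of the DLD exon length. LAMB1 averaged 1060 CPM in siERRα and 874 CPM in imatinib, against 878 CPM in siNC, and rose with siERRα (0.27, adjusted p = 0.00273).

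**Figure D2:**
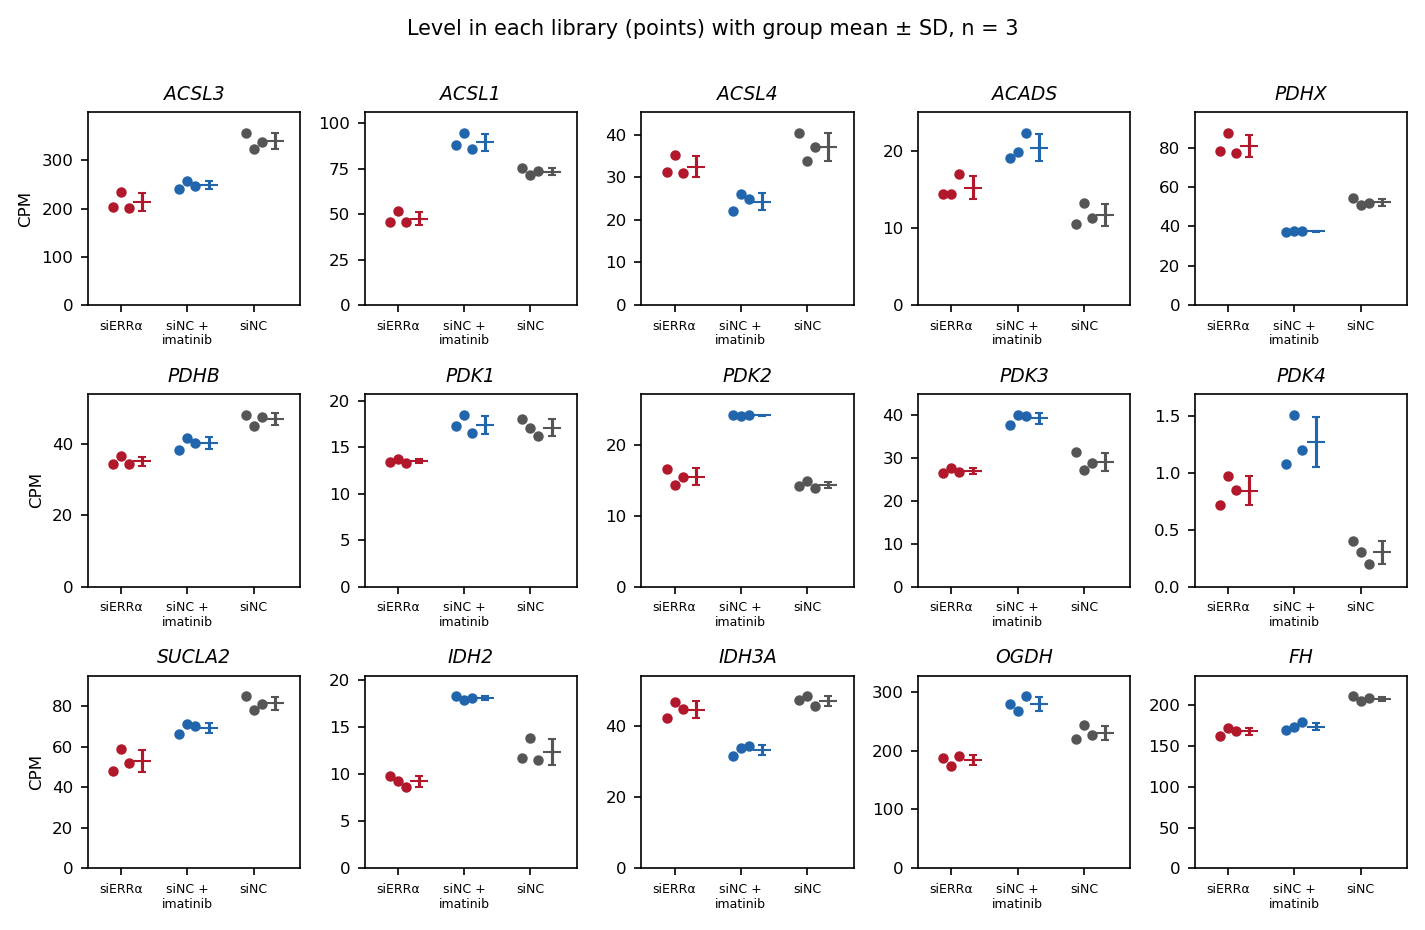
CPM (y axis, from 0) in each of the 3 siERRα, 3 imatinib and 3 siNC libraries (points) with group mean and SD for 15 members. PDHX lies above siNC in siERRα (77.2 to 87.5 CPM) and below it in imatinib (37.2 to 37.8 CPM, against 50.8 to 54.2 CPM in siNC), and IDH2 does the reverse.

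The 4 PDH kinases answered the treatments differently. PDK1, which hypoxia is known to induce, had 13.4, 13.7 and 13.3 CPM in siERRα and 17.3, 18.5 and 16.5 CPM in imatinib, against 18, 17.1 and 16.2 CPM in siNC. It was below both other groups in siERRα (−0.34 against siNC, SE 0.0775, adjusted p = 0.00289). PDK2, the most broadly expressed kinase (chr17:50094737-50112152), had 16.6, 14.3 and 15.5 CPM in siERRα and 24.2, 24.0 and 24.1 CPM in imatinib, against 14.2, 14.8 and 13.9 CPM in siNC. It rose with imatinib (0.75, SE 0.0758, adjusted p = 2.08e-07) and was not called with siERRα (0.12, adjusted p = 0.308). Antisense exons cover 38.6% of its exon length, but their gene, SAMD14, averaged 0.969, 1.67 and 1.45 CPM in siERRα, imatinib and siNC. PDK3 had 26.4, 27.6 and 26.8 CPM in siERRα and 37.8, 40.1 and 39.9 CPM in imatinib, against 31.3, 27.2 and 28.9 CPM in siNC, and likewise rose with imatinib (0.43, SE 0.0688, adjusted p = 5.26e-05).

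PDK4, the starvation-induced kinase and a known ERRα and PPAR target (chr7:95583499-95596516), was the least abundant member. It had 34, 46 and 33 counts in siERRα and 40, 56 and 44 counts in imatinib, against 18, 12 and 10 counts in siNC. As CPM these were 0.713, 0.968 and 0.849 in siERRα and 1.08, 1.51 and 1.2 in imatinib, against 0.403, 0.305 and 0.198 in siNC. The treated libraries lay above every siNC library, and PDK4 rose 2.8-fold with siERRα (log2 fold change 1.49, SE 0.303, adjusted p = 0.00127) and 4.2-fold with imatinib (2.07, SE 0.294, adjusted p = 1.41e-05). Between siERRα and imatinib it was not called (−0.58, 95% interval −1.08 to −0.09, adjusted p = 0.0599). PDK4 did pass in this contrast with at least 10 counts in every library (0.0412), with only the 6 libraries compared (0.0488) and without siERRα 2, imatinib 1 or siNC 3 (adjusted p between 0.0472 and 0.0496). The RefSeq promoter window of PDK4 (GRCh38.p14, 250 bases before to 50 after the start), shown because PDK4 had the largest fold change of the members in both comparisons, holds neither the ERR response element TCAAGGTCA nor its core AAGGTCA on either strand, which says only that these letters are not in this window.
PDK4 promoter, chr7:95596467-95596766, minus strand: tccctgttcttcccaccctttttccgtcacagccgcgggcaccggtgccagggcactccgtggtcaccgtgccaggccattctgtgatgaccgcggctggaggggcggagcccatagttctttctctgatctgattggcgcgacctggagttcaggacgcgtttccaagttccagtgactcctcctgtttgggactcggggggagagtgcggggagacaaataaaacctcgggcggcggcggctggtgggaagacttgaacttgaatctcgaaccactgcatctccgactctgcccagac

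Per kilobase of the canonical transcript, PDK3 was the most abundant kinase in every group (15.5 ± 0.361 in siERRα, 22.6 ± 0.753 in imatinib and 16.7 ± 1.19 CPM per kb in siNC; SD, n = 3). PDK2 followed with 4.6, 7.16 and 4.25 CPM per kb in the same order of groups, then PDK1 with 0.956, 1.24 and 1.21 CPM per kb, and PDK4 was last with at most 0.351 CPM per kb. The order of PDK3 and PDK2 depends on the length used: over all annotated exons, siNC cells had 1.67 CPM per kb of PDK3 and 2.61 CPM per kb of PDK2. Summed, kinase counts averaged 56.7 ± 0.297 CPM in siERRα and 82.1 ± 1.87 CPM in imatinib, against 60.8 CPM in siNC. Of the phosphatases, 1 of 2 was called lower in each comparison with siNC, beside 12.6% of all genes tested with siERRα and 20.3% with imatinib. PDP1, the calcium-sensitive catalytic subunit, had 29.0, 32.5 and 28.6 CPM in siERRα and 28.5, 31.4 and 31.3 CPM in imatinib, against 37.9, 34.8 and 38.4 CPM in siNC. It fell with siERRα (−0.30, adjusted p = 0.00448) and with imatinib (−0.29, adjusted p = 0.00377). PDP2 had 16.7, 16.5 and 14.5 CPM in siERRα and 17.6, 13.7 and 13.0 CPM in imatinib, against 17.3, 18 and 17.3 CPM in siNC, and was not called with imatinib (−0.25, adjusted p = 0.0533), although 6 other settings (adjusted p between 0.0278 and 0.0493) and leaving out siERRα 2 (0.0344) or imatinib 1 (0.00208) put it under the threshold.

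Of 3 genes of pyruvate import and carboxylation, 1 fell and 1 rose with siERRα (backgrounds 12.6% and 11.4%). With imatinib 1 of the 3 fell (background 20.3%). MPC1, a subunit of the mitochondrial pyruvate carrier, fell with siERRα (−0.21, adjusted p = 0.0452) and with imatinib (−0.24, adjusted p = 0.0131). Both calls were fragile: the first was lost without any 1 of 4 libraries (adjusted p between 0.0853 and 0.166) and the second without 1 of 2 (between 0.0608 and 0.0729). Its partner MPC2 was not called in either comparison with siNC, except with siERRα when siERRα 2 was left out (adjusted p = 0.0147). Between siERRα and imatinib MPC2 was not called (−0.15, adjusted p = 0.0779). It did pass in this contrast with at least 10 counts in every library (0.0447) and without siERRα 2 (0.00544) or imatinib 1 (0.0334). PC, the pyruvate carboxylase that refills oxaloacetate, had 75.0, 72.2 and 79.5 CPM in siERRα and 64.0, 57.6 and 64.1 CPM in imatinib, against 58.7, 63.1 and 61.5 CPM in siNC. It stood above all other libraries in siERRα and rose (0.31, SE 0.0634, adjusted p = 0.00146).

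**Figure D3:**
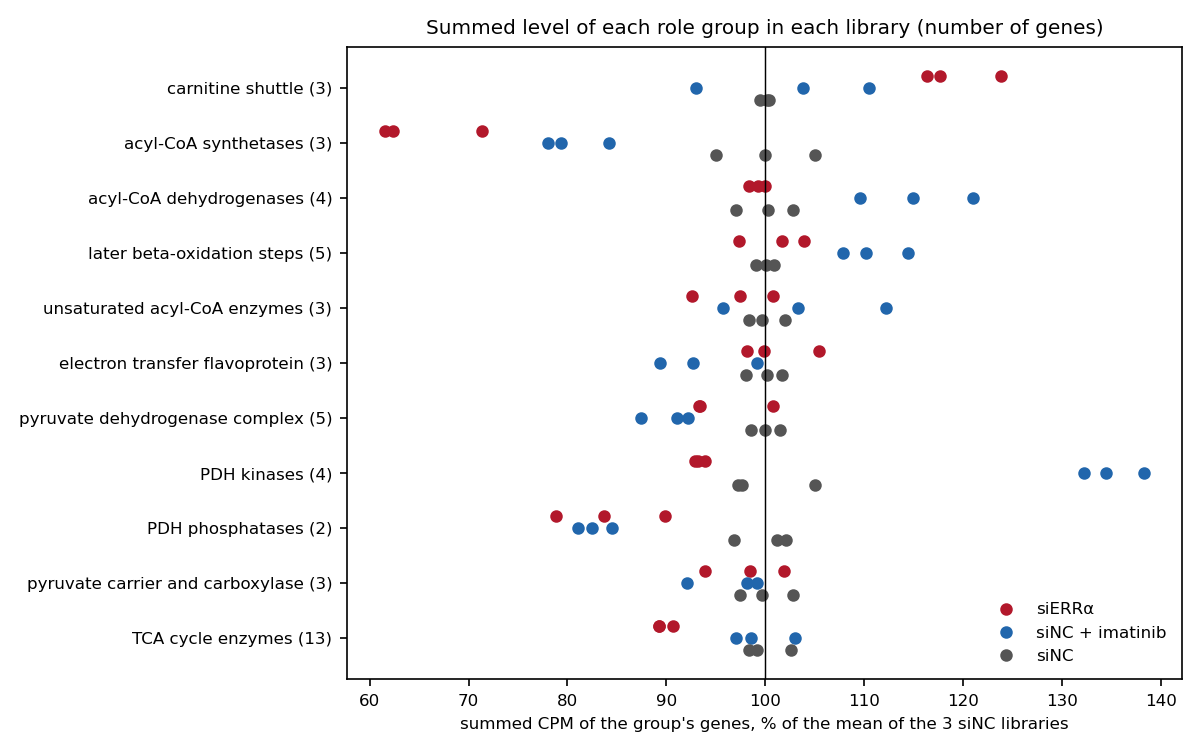
Summed CPM of each role group in each library, as a percentage of the mean of the 3 siNC libraries (x axis), for 11 role groups (y axis, number of genes in brackets), with 1 point per library. The acyl-CoA synthetases lie furthest below siNC in siERRα, and the PDH kinases furthest above it in imatinib.

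In the TCA cycle, 6 of 13 enzymes were lower with siERRα (46.2%, background 12.6%) and 0 higher (background 11.4%). The cytosolic MDH1 is counted among both the 13 and the 6. Of the 13 fold changes 12 were negative, beside 8265 of all 16976 genes tested. SUCLA2, the ATP-forming β-subunit of succinyl-CoA ligase (chr13:47745736-48037968), had 48.1, 58.7 and 51.7 CPM in siERRα and 66.4, 71.2 and 70.1 CPM in imatinib, against 84.7, 78.0 and 81.2 CPM in siNC. It fell to 0.65 of siNC with siERRα (−0.62, SE 0.0702, adjusted p = 2.74e-06) and less so with imatinib (−0.23, adjusted p = 0.0116, or 0.0569 without siNC 1). The direct contrast of siERRα with imatinib was −0.39 (adjusted p = 0.000122). Its partner SUCLG1, the α-subunit, fell with imatinib (−0.21, adjusted p = 0.00387) and was not called with siERRα (−0.09, adjusted p = 0.233), and the GTP-forming SUCLG2 was called in neither.

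SUCLA2 was also the one member whose RefSeq promoter held the ERR core. Among 62 windows of the 44 members that have an entry, the full element TCAAGGTCA was in 0, beside 0.353% of all 35116 windows, and the core AAGGTCA, which the full element contains, was in 1 (1.61%), beside 3.92% of all windows and 2.68% of the windows of tested genes. Both strands were searched. The core begins 183 bases before the start and is in capitals. A match is a description and does not show that ERRα binds there.
SUCLA2 promoter, chr13:48001224-48001523, GRCh38.p14, minus strand: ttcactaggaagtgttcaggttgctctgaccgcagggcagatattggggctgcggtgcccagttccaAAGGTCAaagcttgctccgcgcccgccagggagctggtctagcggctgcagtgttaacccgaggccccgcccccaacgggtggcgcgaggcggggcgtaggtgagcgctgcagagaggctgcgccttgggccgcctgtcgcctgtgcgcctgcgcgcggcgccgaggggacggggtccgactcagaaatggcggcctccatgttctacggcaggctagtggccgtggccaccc

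The isocitrate dehydrogenases parted. IDH2, the NADP-dependent mitochondrial enzyme (chr15:90083045-90102477), had 9.81, 9.32 and 8.62 CPM in siERRα and 18.3, 17.9 and 18.1 CPM in imatinib, against 11.7, 13.9 and 11.5 CPM in siNC. The 3 groups did not overlap. IDH2 fell with siERRα (−0.41, SE 0.0909, adjusted p = 0.00231) and rose with imatinib (0.55, SE 0.0881, adjusted p = 5.1e-05), and the 2 treatments differed by −0.97 (SE 0.09, adjusted p = 3.79e-08). IDH3A, the catalytic subunit of the NAD-dependent enzyme (chr15:78131498-78171945), had 42.2, 46.9 and 45.0 CPM in siERRα and 31.6, 34.0 and 34.4 CPM in imatinib, against 47.5, 48.4 and 45.6 CPM in siNC. It fell with imatinib (−0.50, SE 0.066, adjusted p = 5.95e-06) and was not called with siERRα (−0.08, adjusted p = 0.436). Antisense exons overlap 38.8% of its exon length, and CIB2, the expressed one of their genes, averaged 9.5 and 9.47 CPM in siERRα and imatinib, against 7.63 CPM in siNC (0.32 in both, adjusted p = 0.0271 and 0.0191). IDH3B and IDH3G, the other 2 subunits, were called in neither comparison. Per kilobase of canonical transcript IDH2 was lower than IDH3A, with 3.48 ± 0.225 in siERRα, 6.82 ± 0.0761 in imatinib and 4.66 ± 0.515 CPM per kb in siNC, beside 10.9, 8.16 and 11.6 CPM per kb for IDH3A. In imatinib this order depends on the length used. Over all annotated exons, IDH2 had 3.32, 6.5 and 4.44 CPM per kb in the same order of groups, and IDH3A had 6.55, 4.89 and 6.92.

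The 2-oxoglutarate dehydrogenase complex showed a similar split at its first enzyme. OGDH, its E1, had 188, 174 and 190 CPM in siERRα and 279, 267 and 292 CPM in imatinib, against 220, 243 and 226 CPM in siNC. It fell with siERRα (−0.32, adjusted p = 0.000429) and rose with imatinib (0.28, adjusted p = 0.000597), with a contrast between siERRα and imatinib of −0.60 (adjusted p = 5.84e-08). DLST, its E2, fell with siERRα (−0.24, adjusted p = 0.00401) and was not called with imatinib (0.07, adjusted p = 0.303). FH, fumarate hydratase, had 163, 172 and 168 CPM in siERRα and 170, 173 and 179 CPM in imatinib, against 211, 205 and 209 CPM in siNC, and fell in both (−0.31, adjusted p = 0.00015, and −0.26, adjusted p = 0.000402). The cytosolic malate dehydrogenase MDH1 fell with siERRα (−0.21, adjusted p = 0.0102), a call lost without siERRα 1 or siNC 1 (adjusted p between 0.053 and 0.0697). Citrate synthase (CS), the entry enzyme, and MDH2, the mitochondrial malate dehydrogenase and most abundant member per kilobase (279 ± 9.63 in siERRα, 298 ± 15.5 in imatinib and 293 ± 16.5 CPM per kb in siNC), were called in neither comparison. Summed over the 13 enzymes, the level averaged 1922 ± 17.2 CPM in siERRα and 2134 ± 66.0 CPM in imatinib, against 2143 CPM in siNC.

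**Figure D4:**
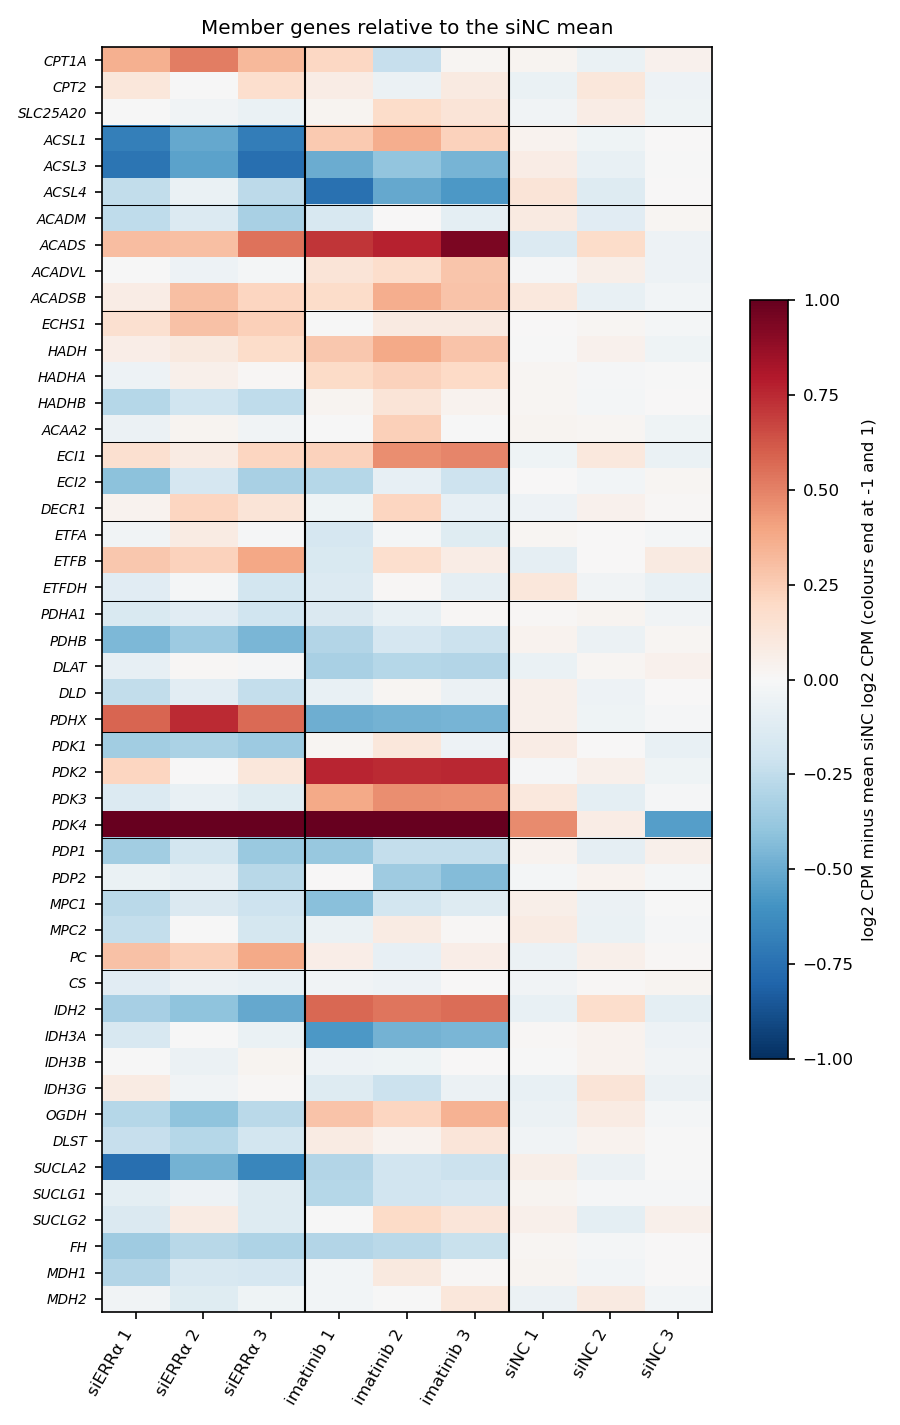
Log2 CPM of each member (rows, by role) in each library (columns) minus the mean log2 CPM of the 3 siNC libraries, in colours that end at −1 and 1. ACSL1, IDH2 and OGDH are blue in siERRα and red in imatinib, PDHX is the reverse, and siNC libraries stay near 0 except for PDK4, which had 10 to 18 counts there.

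Set directly against imatinib, siERRα cells had 26 of 48 members called (54.2%), beside 52.2% of all genes tested. Lower calls made up 18 (37.5%, background 26.6%) and higher calls 8 (16.7%, background 25.6%), with a median of −0.11 beside −0.00 for all genes. Beyond an absolute log2 fold change of 0.5, 6 members were called (background 26.3%): IDH2, ACSL1, PDK2, OGDH and PDK3 were lower with siERRα and PDHX was higher. All 4 acyl-CoA dehydrogenase fold changes were negative, with ACADS (−0.43, adjusted p = 0.000998) and ACADVL (−0.22, adjusted p = 0.00213) called.

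Lists of neighbouring genes that are not members, chosen with earlier results of these data known, were read in the same fit. Of 25 other genes of the TCA cycle and its feeding reactions, 23 were tested, and with siERRα 10 were lower (43.5%, background 12.6%) and 0 higher (background 11.4%), with a median of −0.21. Among the lower ones, IDH1, the cytosolic isocitrate dehydrogenase, had 27.0, 28.2 and 26.8 CPM in siERRα and 59.3, 61.5 and 58.8 CPM in imatinib, against 65.2, 63.2 and 65.2 CPM in siNC (−1.24 with siERRα, adjusted p = 4.4e-11). ATP citrate lyase (ACLY, −0.69, adjusted p = 8.79e-09) and the succinate dehydrogenase subunit SDHD (−0.55, adjusted p = 4.88e-05) fell too. In the 3′ UTR, IDH1 holds 1 copy of the heptamer and ACLY 2, whereas SDHD holds 0. The RefSeq promoter window of SDHD holds the full ERR element TCAAGGTCA, found in 0.353% of all windows, beginning 11 bases after the start. Those of IDH1 and ACLY hold neither the element nor its core. The window of SDHB, also on this list, holds the core alone, found in 3.92% of all windows. None of these matches was tested. With imatinib 5 of the 23 were lower (21.7%) and 6 higher (26.1%), near the backgrounds of 20.3% and 21.4% (median 0.02). The smallest adjusted p among the higher ones were those of NNT, the mitochondrial transhydrogenase (1.08, adjusted p = 2.1e-10), and SLC25A1, the citrate carrier (0.87, adjusted p = 2.62e-08), while the largest fold change was that of the scarce OGDHL (1.59, adjusted p = 0.00721), at 0.543 CPM in imatinib, against 0.176 CPM in siNC.

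Of 34 other genes of fatty acid oxidation and uptake, 29 were tested. With siERRα 4 were lower and 1 higher (17.2% called, below the background of 23.9%; median −0.05). With imatinib 1 was lower (3.45%, background 20.3%) and 12 were higher (41.4%, background 21.4%), with a median of 0.17. The gene higher in siERRα was SLC22A5, the plasma membrane carnitine transporter, with 33.9, 34.9 and 35.8 CPM in siERRα and 15, 17.3 and 16.7 CPM in imatinib, against 16.6, 19.1 and 18.3 CPM in siNC (0.95, adjusted p = 3.29e-08). Higher with imatinib were ACAD10 (0.93, adjusted p = 7.56e-09), carnitine acetyltransferase (CRAT, 0.90, adjusted p = 8.34e-07) and the fatty acid transporter SLC27A1 (0.75, adjusted p = 1.17e-06). Of 14 genes of lipoylation, thiamine supply and related dehydrogenases, 3 were lower and 0 higher with siERRα (21.4% called, background 23.9%), led by the thiamine transporter SLC19A2, which has 3 copies of the heptamer (−1.34, adjusted p = 1.85e-10), and 1 was lower and 4 higher with imatinib (35.7% called, background 41.7%). Of 19 regulators, 17 were tested, with 6 lower (ESRRA included) and 2 higher in siERRα (47.1% called, background 23.9%) and 5 lower and 3 higher in imatinib (47.1% called, background 41.7%). PPARA, the fatty acid receptor, rose with imatinib (0.76, adjusted p = 3.95e-07) and not with siERRα (0.01, adjusted p = 0.936).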

How the data were processed

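The deposited table holds raw read counts per gene symbol, which the authors made with STAR 2.7.3a and featureCounts 2.0.1 on GRCh38 per the labels; no source used here gives the annotation release or strand setting. Of its symbols, 98.8% matched GENCODE 44. Counts of the 9 libraries (37527236 to 49363002 in total) were fitted together with edgeR 4.0.16 (robust quasi-likelihood F-test, TMM, filterByExpr with a minimum count of 10), contrasts were adjusted by Benjamini-Hochberg over 16976 genes, and genes with adjusted p under 0.05 were called. The fit was tested on simulated data. CPM are TMM-scaled. DESeq2 1.42.0, limma-voom (limma 3.58.1), other filters and left-out libraries served as alternatives. Without a stated strand setting, reads of overlapping genes on opposite strands cannot be told apart. Values by library are given for ESRRA, for members called with a change of 0.5 or more on the log2 scale, for PDH kinases and phosphatases and for the carnitine shuttle, plus examples by role. The members and lists were chosen with earlier results of these data known. Promoters are from RefSeq (GRCh38.p14). A result for 1 gene of a neighbouring list is not reported here.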

Additional observations from a re-analysis of the deposited data

How the results depend on the processing

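The count of members called stayed within 1.5 times its value under DESeq2 size factors, the DESeq2 Wald test, limma-voom, both other filters and fits of only the 6 libraries compared. Among the 40 members without the heptamer in the 3′ UTR, 19, 20 and 21 were called in siERRα against siNC, imatinib against siNC and siERRα against imatinib. Removing only 8 members could hardly move the counts further than that bound, so their part was not tested. Among all 48 members, an added minimum of 0.5 on the absolute log2 fold change left 5, 6 and 6 called in the same order of comparisons. With each library left out in turn, the counts ranged from 18 to 26, 21 to 25 and 23 to 32, and the median log2 fold changes from −0.12 to −0.06, −0.02 to 0.02 and −0.16 to −0.09. The imatinib median thus had no stable sign. Without siERRα 2 the first median was −0.12; without imatinib 2 the second was −0.02, and without siNC 1 it was −0.00. The column numbers 1 to 3 did not pair the libraries (correlations of same-numbered deviations between −0.0996 and 0.147), and with that number as a replicate block 21, 25 and 26 members were called. Of the 23, 24 and 26 calls, 17, 20 and 21 held under each of the 16 refits. No called member changed sign. Depth limits PDK4 most, at 10 to 56 counts per library.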

Other observations

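The genes named here were chosen after their values were seen. ME2, the mitochondrial NAD-dependent malic enzyme and a gene of the wider TCA list, had 0 counts in all 9 libraries, although no same-strand gene overlaps its exons (0.0%). Its downstream neighbours on chromosome 18 were also at or near 0: ELAC1 had 0 counts, and SMAD4 had 39 counts over the 9 libraries (0.0271 to 0.229 CPM). Upstream of ME2, MRO (0.566 to 1.86 CPM) and MAPK4 (0.105 to 1.48 CPM) were low, and SKA1, further upstream, had 29.7 to 33.4 CPM. MEX3C, downstream of SMAD4, had 49.3 to 69.5 CPM. The run from ME2 (start 50879080) to SMAD4 (end 51085045, GRCh38) held for all 3 groups, and its cause was not tested.

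PCK2, the mitochondrial phosphoenolpyruvate carboxykinase, and ACADL, the long-chain acyl-CoA dehydrogenase, averaged at most 0.00898 CPM in any group. Of the carnitine palmitoyltransferase 1 genes, CPT1C, a form known from brain, averaged 34.9 CPM in siERRα and 40.2 CPM in imatinib, against 36.9 CPM in siNC, beside 64.9, 49.6 and 49.3 CPM for CPT1A. CPT1B is not interpretable, since 66.4% of its exon length overlaps another gene on the same strand.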
